A study of Mus musculus with 138 samples.

Results

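Translation initiation factor genes code for the proteins that bring a messenger RNA, the initiator tRNA and the ribosomal subunits together at a start codon. They were chosen by name: all genes whose names begin with Eif1 to Eif6, without pseudogenes, the Argonaute genes once called Eif2c, the eIF2 kinases and 2 oocyte or transport relatives (Eif4e1b and Eif4enif1). The rule found 48 genes of the 25900 in the count tables, and all 48 are accounted for below. The eIF3 subunit listed as Eif3j carries the newer name Eif3j1 in GENCODE and was kept apart from the other eIF3 genes in all counts by role.

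Initiation runs in steps that order the results below. eIF1 and eIF1A keep the small ribosomal subunit open for scanning, eIF2 carries the initiator tRNA, and eIF2B reloads eIF2 with GTP. eIF3 is the large scaffold on the small subunit, and the eIF4 proteins bind the cap and unwind the leader. The factors eIF5, eIF5B and eIF6 act around the joining of the subunits. In the mouse the early 2-cell embryo begins with proteins and RNA stored in the oocyte, while new transcripts of the embryo, many of them for ribosomes and translation, appear in the late 2-cell stage.

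The study prepared polyadenylated RNA libraries of single 2-cell mouse embryos and compared 5 groups. Embryos of the maternal deletion group had the genotype Smarca5 +/-, from females labelled as maternal knockout and wild-type fathers. Smarca5 codes for the chromatin remodeller SNF2H. The deletion group was set against Smarca5 +/+ embryos, and titles of both groups carry a remark on maternal knockout females. In the TrimAway experiment, zygotes of wild-type genotype were injected with antibody against SMARCA5, which Trim21 then routes to the proteasome. Controls were zygotes injected with IgG and embryos that were not injected. The driver of the deletion, strain and age of the animals are not given in the sources used here. A replicate number names a pool of embryos from several matings or injections, which the labels call technical replicates, so p-values measure the spread between embryos of few pools.

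Of 135 embryo libraries, the 116 with at least 100000 counts were kept: 22 wild type, 28 maternal deletion, 31 anti-SMARCA5, 20 IgG and 15 not injected. Their totals ran from 109007 to 12004992 counts (median 1469197), with a lower median in wild type (545265) than after deletion (1618486). All 6 IgG libraries of replicate 2 fell below the minimum. Smarca5 RNA had a median of 375 CPM in wild type and 98.3 CPM after deletion, a log2 change of -2.06 ± 0.31 (SE, edgeR adjusted p = 2.63e-07). TrimAway acts on the protein, so Smarca5 RNA is no check there. Against IgG its log2 change was -0.65 (edgeR adjusted p = 0.124), and -1.02 with the replicate number as a block (adjusted p = 0.0138). Against no injection the values were -0.14 (adjusted p = 0.737) and -0.45 (adjusted p = 0.212). Medians with IgG and anti-SMARCA5 were 607 and 390 CPM in replicate 1, and 645 and 163 CPM in replicate 3. Trim21 RNA had a median of 1327 CPM in anti-SMARCA5 embryos and 0 CPM in IgG embryos of replicate 1, against 286 CPM in IgG embryos of replicate 3. No library of the IgG pool of replicate 1 had a Trim21 count. The library labelled maternal deletion in well A04 of replicate 2 had 337 CPM of Smarca5 and only 23.7 CPM of the oocyte gene Gdf9 (group median 4847 CPM), and 2 wild-type libraries of replicate 2 had 644 and 297 CPM of Gdf9 (group median 54.1 CPM). The anti-SMARCA5 library in well C02 of replicate 2 had no Trim21. Values are CPM, counts scaled to the library total with TMM factors within each experiment. A CPM is a share of the RNA sequenced: fewer cells with a transcript and less of it per cell cannot be told apart, nor can a loss of one RNA from a gain of others.

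In wild-type embryos the 48 genes took a median of 1.23% of a library's counts (lowest 0.695%, highest 1.96%). After maternal deletion the median was 0.572%, with a range of 0.418% to 1.54%. The A04 library was the highest of the deletion group, and the other 27 reached at most 0.851%. The pools differed in their starting level. Wild-type embryos of replicate 1 had a median of 0.777% and those of replicate 2 a median of 1.67%. Within replicate 1 the lowest wild-type embryo (0.695%) still lay above the highest deletion embryo (0.664%). In the TrimAway experiment the medians were 0.939% without injection, 0.962% with IgG and 0.733% with anti-SMARCA5, and these ranges overlapped.

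**Figure D1:**
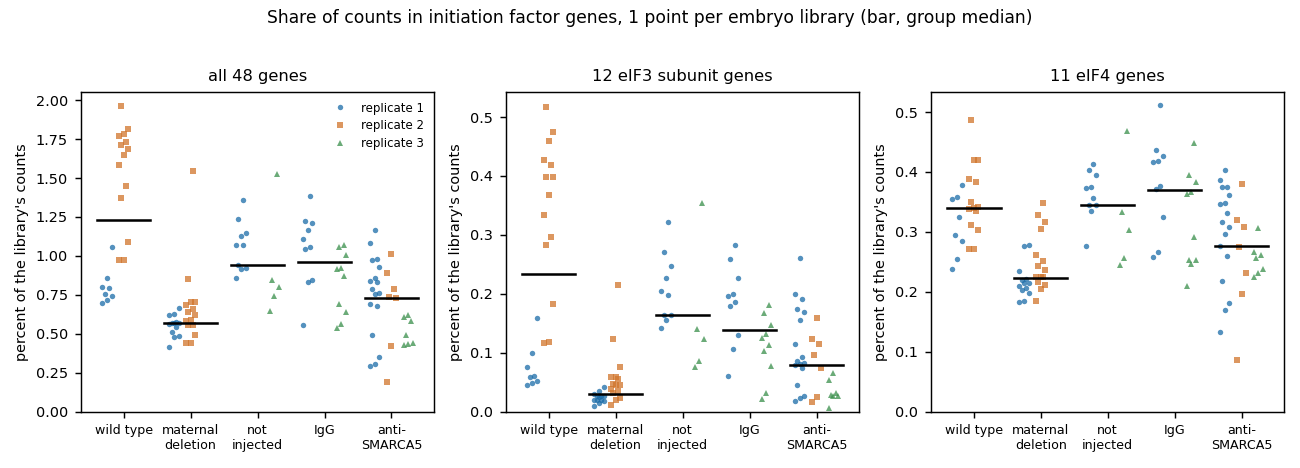
Percent of each library's counts that fell on all 48 initiation factor genes, on the 12 eIF3 subunit genes and on the 11 eIF4 genes. Each point is 1 embryo library, colour and shape give the replicate number, and the bar is the group median. The eIF3 genes had a median share of 0.233% in wild type and 0.0302% after deletion, while the eIF4 genes had 0.339% and 0.223%.

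Per kilobase of exon sequence, the order of the genes also differed between the groups. In wild type the highest medians were those of Eif5a (437 CPM per kb), Eif6 (266 CPM per kb), Eif1 (207 CPM per kb), Eif5 (190 CPM per kb) and Eif3c (147 CPM per kb). After deletion Eif1 (378 CPM per kb) and Eif5a (301 CPM per kb) led, followed by Eif1b (116 CPM per kb), Eif4g2 (112 CPM per kb) and Eif4e3 (101 CPM per kb). Eif6 was then in place 16 and Eif3c in place 22. The wild-type pools had different orders. In replicate 2 Eif6 and Eif3c were in places 2 and 3, and in replicate 1 in places 8 and 14, with Eif4g2 and Eif4e in places 4 and 5 there. After deletion Eif6 and Eif3c were in places 21 and 29 in replicate 1 and in places 11 and 13 in replicate 2. Eif1 and Eif5a also led without injection, with 218 and 186 CPM per kb. Neighbours in these orders overlapped widely between embryos. Eif2s3y and Eif4ebp3 were the lowest in wild type, with medians of 0.

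Most initiation factor genes had a lower share of the RNA sequenced after maternal deletion than in wild type. Of the 46 genes with enough counts to test, 29 fell and 3 rose at an adjusted p under 0.05 (edgeR quasi-likelihood test, Benjamini-Hochberg over all 8518 genes tested). Among all genes tested 56.6% were called, 26.4% lower and 30.3% higher, against 63.0% of the initiation factor genes called lower. The median log2 change was -1.22 over the 46 genes and 0.18 over all genes. Scaling by total counts alone moved the median of all genes to -0.04 and that of the 46 to -1.49, with 33 lower and 2 higher. With the replicate number as a block 26 fell and 3 rose, with 57.6% of all genes called. Within replicate 2 alone 26 fell and 3 rose of 46 tested (39.9% of all genes called, 15.7% lower). Within replicate 1 alone 12 fell and 2 rose of 34 (43.8% called, 20.2% lower). Without the 3 libraries that stand apart 31 fell and 3 rose (60.1% called).

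**Figure D2:**
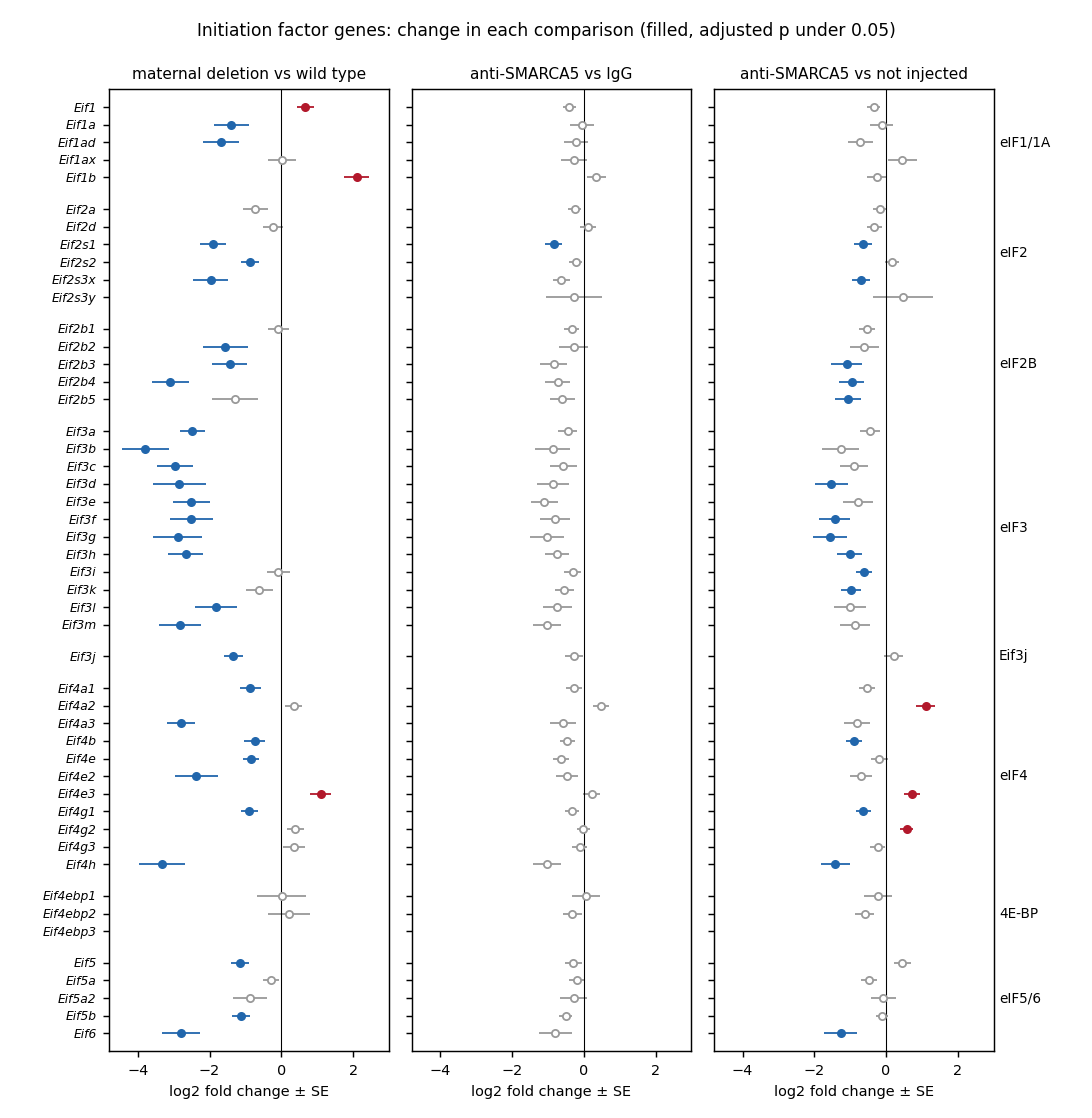
Log2 fold change with its standard error for each initiation factor gene, ordered by role, after maternal deletion against wild type and in anti-SMARCA5 embryos against IgG and against embryos not injected. Filled points passed an adjusted p of 0.05, blue lower and red higher. In the deletion panel 29 genes are blue and 3 red, and a gene with no point had too few counts to test.

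Oocyte and stage markers moved with these changes. The 9 oocyte markers summed to a median of 11574 CPM after deletion (547 to 35706 CPM) and 1178 CPM in wild type (234 to 4657 CPM). The wild-type pools were far apart, with medians of 3036 CPM in replicate 1 and 495 CPM in replicate 2. The deletion medians were 13004 and 9294 CPM. The 6 markers of the 2-cell stage found in the tables include Zscan4c and Zfp352. They summed to a median of 32.1 CPM after deletion (0 to 1548 CPM) and 390 CPM in wild type (33.4 to 1209 CPM). The ranges overlapped, and 3 of the 6 markers had a median of 0 after deletion. Medians of the sum in wild type and after deletion were 612 and 40.8 CPM in replicate 1, and 251 and 23.4 CPM in replicate 2. Of the 9 cumulus cell markers, 7 had a median of 0 after deletion and all 9 in wild type. They summed to a median of 24.2 CPM after deletion (0 to 93.2 CPM) and 0 CPM in wild type (0 to 45.4 CPM). The 7 markers of trophectoderm or later stages summed to medians of 177 and 127 CPM. The part of the shifts of these markers in the falls described here was not tested.

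Most eIF3 genes fell. Of the 12 subunit genes all were tested and 10 fell, with a median log2 change of -2.59. Of the subunits that form the scaffold core, Eif3a, Eif3c, Eif3e, Eif3f, Eif3h, Eif3l and Eif3m were among them, with log2 changes from -2.96 (Eif3c) to -1.83 (Eif3l). The pools differed for Eif3l. Its medians in wild type and after deletion were 7.39 and 7.13 CPM in replicate 1, and 111 and 38.5 CPM in replicate 2. Eif3k, which also belongs to that core, had -0.61 ± 0.38 (adjusted p = 0.164, edgeR). The module on the other face of the ribosomal subunit gave a fall of Eif3b and Eif3g but a log2 change of -0.09 ± 0.32 (SE) for its remaining member, Eif3i (adjusted p = 0.816, edgeR). Eif3d, which can bind the cap of selected messages, fell by 2.84 on the log2 scale (adjusted p = 0.00118), but with the replicate block its value was -1.94 (adjusted p = 0.0578). Its medians in wild type and after deletion were 0 and 1.92 CPM in replicate 1, and 55.2 and 0.308 CPM in replicate 2. Eif3j fell by 1.34 ± 0.27 (adjusted p = 5.24e-05).

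Eif3b (ENSMUSG00000056076, chr5:140419305-140443358, GRCm38), a core subunit that contacts the decoding site, had the largest fall of the 46 genes tested. Wild-type embryos had 0 CPM to 370 CPM with a median of 105 CPM, and deletion embryos 0 CPM to 48.8 CPM with a median of 2.35 CPM. All 28 deletion embryos lay below the wild-type median, and 12 of them had no count, against 1 of 22 in wild type. The log2 change was -3.80 ± 0.65 (adjusted p = 3.72e-06). Wild-type pools were far apart for this gene, with a median of 26.0 CPM in replicate 1 and 168 CPM in replicate 2, and each lay above the deletion median of its own pool (0 CPM and 6.38 CPM).

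Eif3c (ENSMUSG00000030738, chr7:126546912-126566366), which helps recruit eIF1 and eIF5, had 49.7, 516 and 1737 CPM as lowest, median and highest in wild type. After deletion the same values were 0, 29.4 and 478 CPM. The 2 groups overlapped, yet 28 of 28 deletion embryos were below the wild-type median and 17 were below the lowest wild-type embryo. Its log2 change was -2.96 ± 0.50 (adjusted p = 3.13e-06), with -3.00 within replicate 1 and -2.68 within replicate 2. Eif3g (ENSMUSG00000070319, chr9:20894352-20898600), a subunit with an RNA-binding domain, had 0, 149 and 391 CPM in wild type and 0, 2.19 and 311 CPM after deletion. The highest deletion value was that of the A04 library. Eif3g fell by 2.89 ± 0.69 on the log2 scale (adjusted p = 0.000403).

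**Figure D3:**
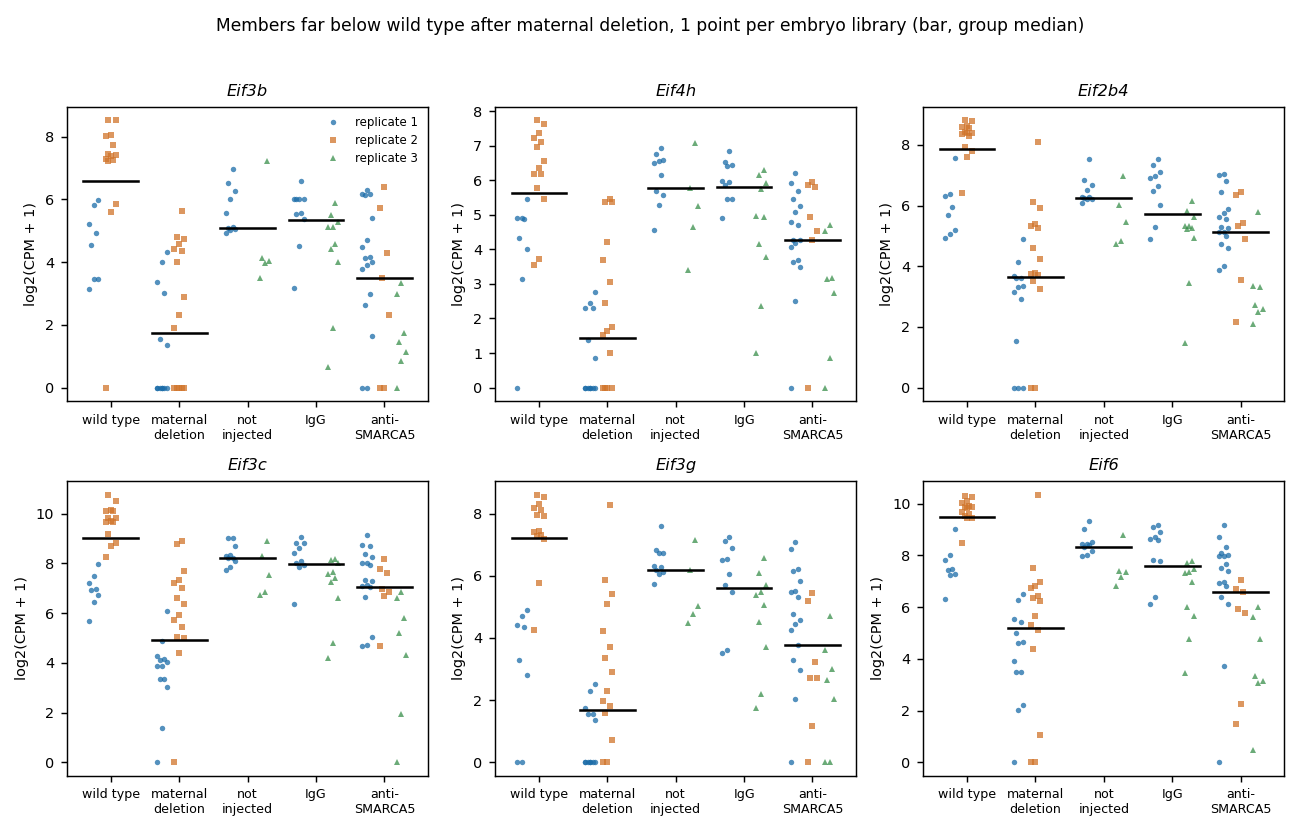
Level of Eif3b, Eif4h, Eif2b4, Eif3c, Eif3g and Eif6 in each embryo library, as log2(CPM + 1), by group, with the replicate number in colour and shape and the group median as a bar. The deletion medians lie below the wild-type medians in all 6 panels. With IgG, with anti-SMARCA5 and without injection, the medians of replicate 3 lie below those of replicate 1. For Eif6 these were 143 and 389 CPM with IgG and 9.10 and 183 CPM with anti-SMARCA5. For Eif3b without injection they were 15.3 and 40.5 CPM.

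Since 10 of 12 eIF3 genes fell, the RefSeq promoters of the GRCm38.p6 build (250 bases before to 50 after the start) were read for letters that known factors bind. A promoter was found for 38 of the 48 genes. The ETS family motif CCGGAAG, on either strand, stood in 14 of 38 promoters (36.8%), against 9.93% of 27025 genes with a promoter and 22.1% of those tested in the deletion comparison. It was in 9 of the 24 promoters of genes that fell and in 5 of the other 14. The E-box CACGTG, which reads the same on both strands, stood in 10 of 38 promoters (26.3%), against 8.09% of all genes and 12.4% of those tested. It was in 6 of 24 genes that fell and 4 of the other 14. The GC box GGGCGG was in 30 of 38 (78.9%, against 70.1% of the genes tested) and TATAAA in 4 (10.5%, against 8.46%). CCAAT was in 12 (31.6%, against 45.0%). A match is only a description of the letters. The stretches below run from 60 bases before to 20 after the start, 5′ to 3′ on the strand of the gene, with ETS or E-box letters in capitals. They show 4 genes that fell with an ETS match, Eif3b, which fell without one in these 80 bases, and Eif1b, which rose. Other genes, not shown, also had matches in the same 80 bases. ETS letters stood in Eif2b4 and Eif3m, which fell, and in Eif5a2, which was not called. An E-box stood in Eif4g1, which fell, and in Eif3k, which was not called.
Eif3c (chr7:126566347-126566426, minus): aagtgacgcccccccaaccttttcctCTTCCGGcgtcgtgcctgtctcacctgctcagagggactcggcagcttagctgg
Eif3g (chr9:20898571-20898650, minus): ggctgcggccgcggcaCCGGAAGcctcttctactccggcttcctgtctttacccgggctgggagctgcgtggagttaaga
Eif3l (chr15:79075163-79075242, plus): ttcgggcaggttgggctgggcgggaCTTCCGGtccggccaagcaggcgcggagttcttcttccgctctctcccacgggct
Eif4e2 (chr1:87213851-87213930, plus): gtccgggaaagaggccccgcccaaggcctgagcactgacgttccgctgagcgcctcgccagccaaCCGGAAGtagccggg
Eif3b (chr5:140419245-140419324, plus): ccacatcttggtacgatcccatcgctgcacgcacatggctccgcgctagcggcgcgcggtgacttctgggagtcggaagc
Eif1b (chr9:120492546-120492625, plus): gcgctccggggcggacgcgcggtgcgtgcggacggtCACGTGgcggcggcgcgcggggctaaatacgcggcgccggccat

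Among the eIF1 and eIF1A genes the changes went in opposite directions. Eif1b (ENSMUSG00000006941, chr9:120492606-120495327), a close relative of Eif1, had 3.79, 40.7 and 119 CPM as lowest, median and highest in wild type. Deletion embryos had 22.5, 130 and 482 CPM. Of 28 deletion embryos, 24 were above the wild-type median and 15 above every wild-type embryo. Eif1b rose 4.27-fold (adjusted p = 2.00e-06), with log2 changes of 2.72 within replicate 1 and 1.39 within replicate 2, each called. Eif1 itself, the guardian of start codon choice, had 193, 434 and 992 CPM in wild type and 196, 793 and 1814 CPM after deletion. The ranges overlapped, with 6 of 28 deletion embryos above every wild-type embryo. Eif1 rose by 0.66 ± 0.23 (adjusted p = 0.0128), but within replicate 2 its value was 0.45 (adjusted p = 0.24).

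Eif1a, one of the genes for the scanning factor eIF1A, had 32.8, 140 and 330 CPM in wild type and 0, 31.5 and 247 CPM after deletion. Its deletion values reached below the wild-type range in 14 of 28 embryos, and 6 embryos had no count. Eif1a fell by 1.39 ± 0.48 (adjusted p = 0.0116), with -2.29 within replicate 1 and -0.87 within replicate 2 (adjusted p = 0.193). Its X-linked partner Eif1ax had medians of 43.6 CPM in wild type and 46.8 CPM after deletion, over ranges of 7.84 to 116 CPM and 0 to 226 CPM. The log2 change of Eif1ax was 0.01 ± 0.39 (adjusted p = 0.985). Eif1ad, a related gene with an eIF1A-like domain, fell by 1.67 ± 0.50 (adjusted p = 0.00422).

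All 3 tested subunit genes of eIF2, the carrier of the initiator tRNA, fell. Eif2s1, the alpha subunit that stress kinases phosphorylate, had 59.6, 327 and 726 CPM in wild type and 0, 74.4 and 424 CPM after deletion. Of 28 deletion embryos 27 were below the wild-type median. Eif2s1 fell by 1.90 ± 0.36 (adjusted p = 2.45e-05) and Eif2s2, the beta subunit, by 0.87 ± 0.25 (adjusted p = 0.00307). The gamma subunit has an X-linked and a Y-linked gene. Eif2s3x had 5.57, 65.2 and 266 CPM in wild type and 0, 16.9 and 136 CPM after deletion, and it fell by 1.98 ± 0.48 (adjusted p = 0.000576). Eif2s3y was too low to test. It was at 0 in 12 of 22 wild-type and in 25 of 28 deletion embryos, with highest values of 55.4 and 10.2 CPM. Eif2a and Eif2d, which deliver tRNA by other routes, had log2 changes of -0.73 (adjusted p = 0.0682) and -0.23 (adjusted p = 0.498).

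Of the 5 eIF2B genes 3 fell. Eif2b4 (ENSMUSG00000029145, chr5:31187558-31193430), the delta subunit, had 29.8, 232 and 452 CPM in wild type and 0, 11.6 and 271 CPM after deletion. All deletion embryos but 1 were below the wild-type median, and 22 of 28 were below every wild-type embryo. The exception at 271 CPM was the A04 library. Eif2b4 fell by 3.09 ± 0.51 (adjusted p = 1.65e-06), with -3.01 within replicate 1 and -2.92 within replicate 2. Eif2b2 fell by 1.56 ± 0.64 (adjusted p = 0.0329). Eif2b3 fell by 1.44 ± 0.48 (adjusted p = 0.00967), with -0.97 (adjusted p = 0.0783) under the replicate block. Eif2b5, the catalytic subunit, had -1.29 ± 0.64 (adjusted p = 0.079) and Eif2b1 had -0.08 ± 0.29 (adjusted p = 0.818). Eif2b4 overlaps Snx17 on the opposite strand, and the use of strand in counting is not given in the sources used here, so reads of the 2 genes cannot be told apart there. The same limit holds for the other 9 genes with a partner on the opposite strand: Eif2a, Eif2d, Eif2s2, Eif3j, Eif3m, Eif4a2, Eif4g3, Eif5b and Eif6.

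The 11 genes around the cap were split: 7 fell, 1 rose and 3 did not pass the test. Eif4h (ENSMUSG00000040731, chr5:134619880-134639348), a helper of the helicase eIF4A, had 0, 48.4 and 213 CPM in wild type and 0, 1.73 and 42.8 CPM after deletion. All 28 deletion embryos were below the wild-type median, 11 of them at 0. Eif4h fell by 3.33 ± 0.64 (adjusted p = 2.43e-05). Eif4a3, a helicase of the exon junction complex, fell by 2.80 ± 0.38 (adjusted p = 3.74e-08), and 27 of 28 deletion embryos lay below the lowest wild-type embryo. Eif4e2, a cap-binding protein known as a repressor, fell by 2.37 ± 0.61 (adjusted p = 0.000963). Eif4a1, the main helicase, fell by 0.87 ± 0.29 (adjusted p = 0.00897) and was at -0.37 within replicate 1 (adjusted p = 0.54). Eif4b, another helper of eIF4A, fell by 0.75 ± 0.30 (adjusted p = 0.0303), but had -0.65 (adjusted p = 0.0625) under the replicate block.

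Eif4e, the cap-binding protein, had 423, 776 and 1374 CPM in wild type and 44.8, 392 and 1319 CPM after deletion. The groups overlapped, although 25 of 28 deletion embryos were below the wild-type median. It fell by 0.86 ± 0.22 (adjusted p = 0.00118). Eif4g1, the scaffold that links the cap to eIF3, had 63.5, 229 and 495 CPM in wild type and 27.2, 120 and 290 CPM after deletion. It fell by 0.90 ± 0.23 (adjusted p = 0.000908). Eif4g2, a related protein without the eIF4E-binding part, had 142, 753 and 3048 CPM in wild type and 355, 1140 and 2309 CPM after deletion. Its pools went apart, with -0.33 within replicate 1 (adjusted p = 0.36) and 1.15 within replicate 2 (adjusted p = 0.0019), and 0.39 ± 0.24 over both (adjusted p = 0.17). The test of that difference between pools gave 1.35 ± 0.41 (adjusted p = 0.0898). Eif4g3, another scaffold paralog, had 0.35 ± 0.32 (adjusted p = 0.349).

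Eif4e3 (ENSMUSG00000093661, chr6:99625135-99666771), a member of the eIF4E family, was the gene that rose. It had 5.57, 124 and 417 CPM in wild type and 80.8, 255 and 1003 CPM after deletion, and 26 of 28 deletion embryos were above the wild-type median. The change was 1.09 ± 0.29 (adjusted p = 0.00137), with 1.55 within replicate 2 and 0.57 (adjusted p = 0.17) within replicate 1. Eif4e3 overlaps Gm20696 on the same strand, so their reads cannot be told apart. Of the 3 binding proteins that hold eIF4E inactive 2 were tested, and neither passed. Eif4ebp1 had 0, 9.09 and 99.3 CPM in wild type and 0, 8.53 and 219 CPM after deletion, a log2 change of 0.00 ± 0.69 (adjusted p = 0.998). Eif4ebp2 had 0.21 ± 0.59 (adjusted p = 0.769), and Eif4ebp3, not tested, was at 0 in 20 of 22 and 20 of 28 embryos.

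Among the late factors, Eif6 (ENSMUSG00000027613, chr2:155819832-155826925), which keeps the large ribosomal subunit from joining too early, fell by 2.79 ± 0.54 (adjusted p = 2.37e-05). It had 79.5, 720 and 1259 CPM in wild type and 0, 36.0 and 1308 CPM after deletion. The highest deletion embryo was again the A04 library, and 20 of 28 were below every wild-type embryo. Eif5, the GTPase activator of eIF2, had 545, 1299 and 2170 CPM in wild type and 124, 476 and 1899 CPM after deletion. Eif5 fell by 1.15 ± 0.24 (adjusted p = 9.32e-05). Eif5b, the joining GTPase, fell by 1.12 ± 0.24 (adjusted p = 0.000117), and was at -0.32 within replicate 1 (adjusted p = 0.38). Eif5a, which acts in elongation despite its name, had a log2 change of -0.29 ± 0.22 (adjusted p = 0.258) and Eif5a2 of -0.88 ± 0.47 (adjusted p = 0.106). Handling of reads that match several places is not given in the sources used here, and such reads could be split between these paralogs or lost to pseudogenes.

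Shares within paralog families were measured per kilobase within each embryo, with no test. Eif1b made up a median of 13.1% of Eif1 and Eif1b together in wild type (3.06% to 36.6%) and 29.4% after deletion (7.78% to 49.5%). Eif4e3 made up 26.3% of Eif4e, Eif4e2 and Eif4e3 in wild type (2.04% to 64.5%) and 63.7% after deletion (25.8% to 90.7%). Eif4a2 made up 14.5% of Eif4a1 and Eif4a2 in wild type and 40.9% after deletion, while the change of Eif4a2 itself was 0.34 ± 0.23 (adjusted p = 0.207). In the Eif5a family Eif5a had a median share of 98.2% in wild type and 98.8% after deletion. The ranges of the 2 groups overlapped for each of these families.

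**Figure D4:**
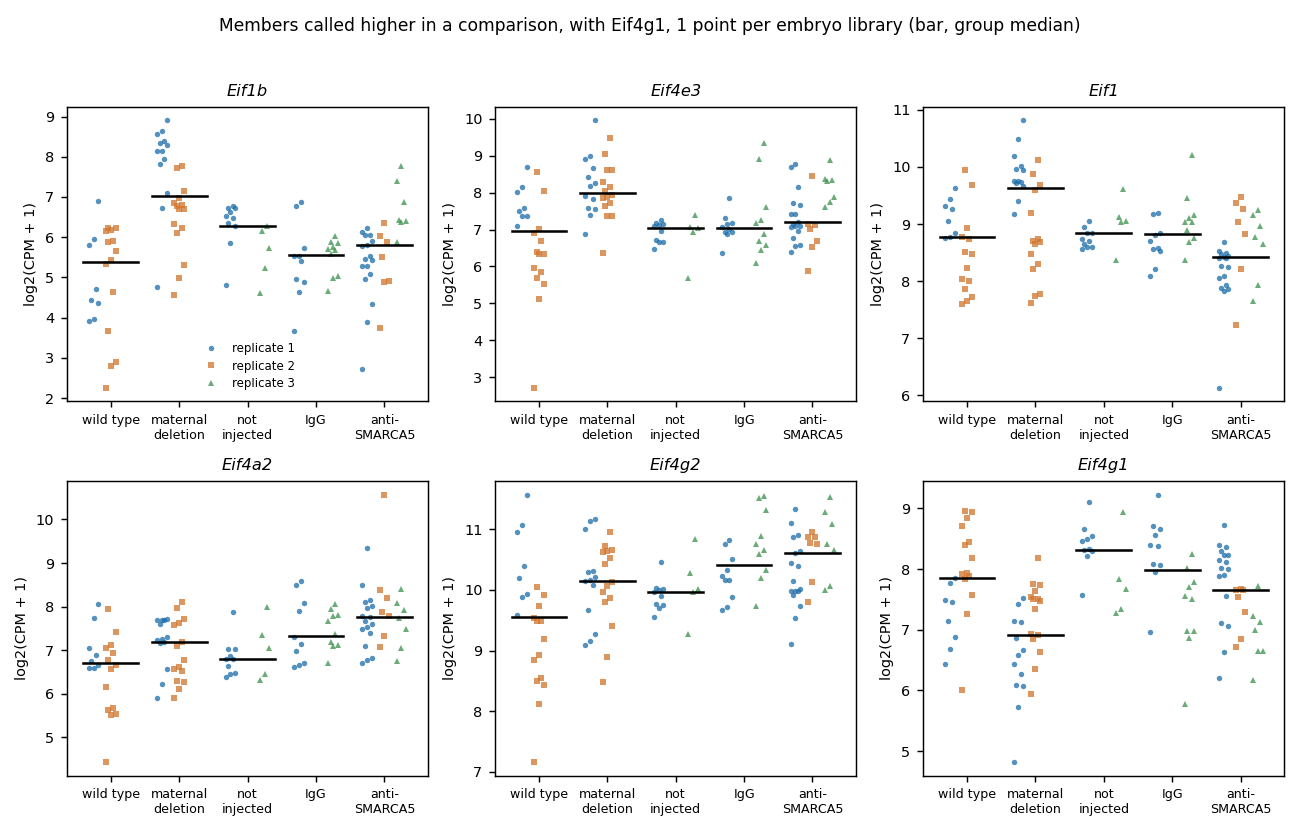
Level of Eif1b, Eif4e3, Eif1, Eif4a2, Eif4g2 and, for comparison, Eif4g1 in each embryo library, as log2(CPM + 1), by group, with the replicate number in colour and shape and the group median as a bar. Eif1b had a median of 40.7 CPM in wild type and 130 CPM after deletion, and the points of the 2 groups overlap in part.

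The effect of deletion was also compared between the pools. The interaction test in edgeR called 0 of 46 genes (0.763% of all genes), with 5 at an unadjusted p under 0.05. On simulated data this test missed most differences of the sizes tried, so a count of 0 does not show that the pools acted alike. In replicate 1, 25 of 34 tested genes had a log2 change below 0, against 43.6% of all genes tested. In replicate 2 there were 39 of 46, against 44.6% of all genes.

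Other genes of translation were taken from lists of elongation and termination factors and of initiation regulators. Of 12 elongation and termination factors 10 were tested, 6 fell and none rose after deletion, with a median of -1.44, where 26.4% of all genes were called lower and 30.3% higher. Eef2, the translocase, fell by 1.95 ± 0.39 (adjusted p = 4.81e-05), and the termination factors Etf1 and Gspt1 fell by 1.24 and 1.86. Eef1a1, which brings tRNA to the ribosome, had 0.05 ± 0.31 (adjusted p = 0.896). Of 34 regulators and helpers 32 were tested, 8 fell and 4 rose, with a median of -0.10, so the share that fell was close to that of all genes and the share that rose below it. Abcf1, a helper of eIF2, fell by 3.43, Ppp1r15a, a phosphatase subunit for eIF2, by 3.29 and Denr, a ribosome recycling factor, by 2.98. The 4 that rose were Pabpc1l and Eif4e1b, oocyte relatives of the poly(A)-binding protein and of eIF4E (2.54 and 1.87), Paip1 (1.02) and Pdcd4, an inhibitor of eIF4A (0.93). Pabpc1, the somatic poly(A)-binding protein, was 4.28-fold lower (adjusted p = 5.63e-05).

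In TrimAway embryos most initiation factor genes lay below IgG, but 46 of 47 missed the threshold. Only Eif2s1 fell and none rose, against 3.03% of 10447 genes called and 1.3% called lower (edgeR), and 14 genes had an unadjusted p under 0.05. DESeq2 called 4 lower. The median log2 change was -0.40 over the 47 genes and 0.04 over all genes. Eif2s1 had 54.0, 269 and 615 CPM with IgG and 11.3, 161 and 327 CPM with anti-SMARCA5, and 29 of 31 anti-SMARCA5 embryos were below the IgG median. It fell by 0.84 ± 0.25 (adjusted p = 0.0473, 0.00607 to 0.387 over 9 alternatives). All 12 eIF3 genes had values below 0, with a median of -0.78, and none passed without the block.

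With the replicate number as a block 19 of 47 genes fell and none rose, against 25.8% of all genes called and 13.6% called lower. Of these, 9 were the eIF3 genes Eif3a, Eif3b, Eif3c, Eif3e, Eif3f, Eif3g, Eif3h, Eif3l and Eif3m. The lowest blocked values were -1.65 for Eif3m (adjusted p = 0.0059) and Eif3b (adjusted p = 0.0249), and Eif4h had -1.50 (adjusted p = 0.00883). Of the 29 genes that fell after maternal deletion 18 were among the 19. The remaining gene, Eif1, had -0.45 (adjusted p = 0.0474) and had risen after deletion. As 63.0% of the initiation factor genes tested had fallen after deletion, much of any list of them would be shared. The overlap over all genes was not counted. Without replicate 1 none of 46 tested genes passed, with 5 at an unadjusted p under 0.05, but neither did any of all 9402 genes. That fit held 14 anti-SMARCA5 and 10 IgG libraries, and replicate 2 had no IgG library kept. The count of 0 is therefore not particular to the initiation factor genes.

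The comparison was repeated within each pool that holds both groups. Within replicate 3, with 7 anti-SMARCA5 and 10 IgG embryos, 7 of 46 tested genes fell and 1 rose, against 9.54% and 6.97% of all genes. Eif3b fell by 3.10 ± 0.80 (adjusted p = 0.0184), from an IgG median of 28.1 CPM to 1.72 CPM. Eif3l fell by 2.79, Eif6 by 2.40, Eif3m by 2.40, Eif4a3 by 2.11, Eif3h by 1.51 and Eif2s1 by 1.37. Eif6 had a median of 143 CPM with IgG and 9.10 CPM with anti-SMARCA5 in that pool. Eif1b rose by 1.32 ± 0.32 (adjusted p = 0.0144). Within replicate 1, with 17 and 10 embryos and IgG libraries without Trim21 counts, none of 47 passed (0.857% of all genes), and 15 had an unadjusted p under 0.05. There Eif3b had -0.87, from 54.7 CPM with IgG to 16.5 CPM. The difference between these pools was not tested. Markers moved within the same pool. In replicate 3 the oocyte markers summed to medians of 2375 CPM with IgG and 3468 CPM with anti-SMARCA5, and the 2-cell markers to 408 and 108 CPM. In replicate 1 the oocyte markers summed to 1135 and 1563 CPM and the 2-cell markers to 412 and 665 CPM. Gdf9 had medians of 185 CPM with IgG and 459 CPM with anti-SMARCA5 in replicate 3, and 237 and 229 CPM in replicate 1. The part of these markers in the falls was not tested.

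**Figure D5:**
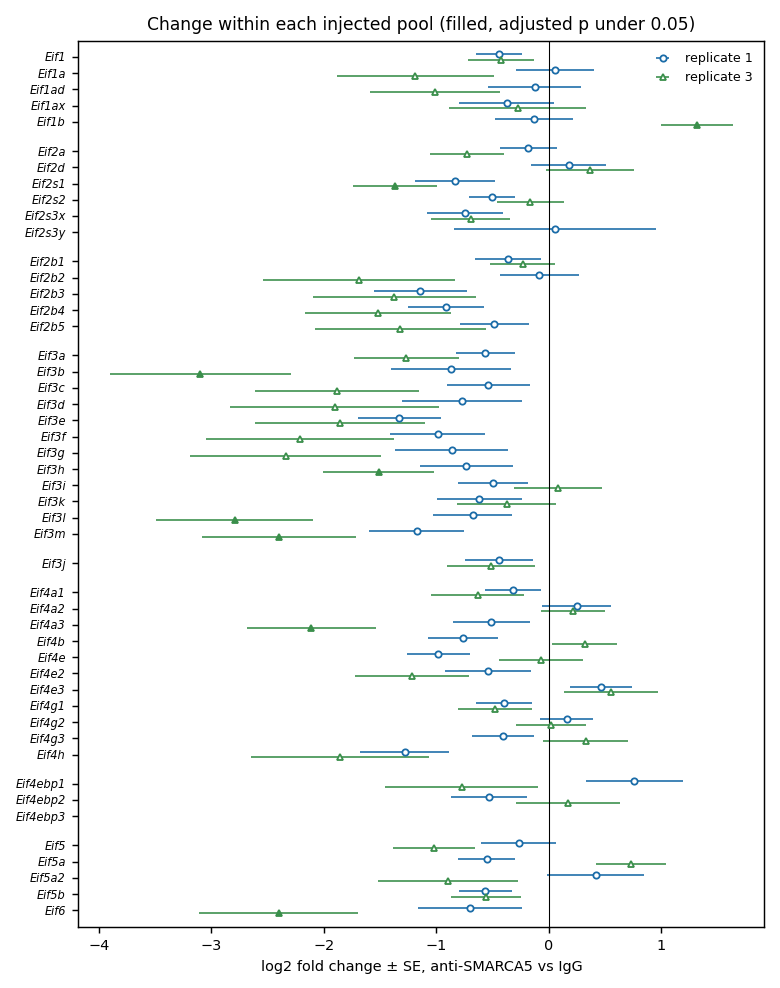
Log2 fold change with its standard error of anti-SMARCA5 against IgG for each initiation factor gene, within replicate 1 (circles) and within replicate 3 (triangles). Filled points passed an adjusted p of 0.05. All 8 filled points belong to replicate 3, of which Eif1b is the only one above 0.

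Against embryos that were not injected, 15 of 47 genes fell and 3 rose, against 10.4% and 17.5% of 10750 genes. These anti-SMARCA5 libraries are the same as in the comparison with IgG. The oocyte gene Gdf9 rose by 0.75 ± 0.27 here (adjusted p = 0.0324), with 24 of 31 injected embryos above the control median. The oocyte markers summed to medians of 1484 CPM without injection and 1953 CPM with anti-SMARCA5, and the 2-cell markers to 221 and 404 CPM. The pools went apart. In replicate 1 the oocyte markers summed to 1548 and 1563 CPM and the 2-cell markers to 204 and 665 CPM. In replicate 3 these sums were 1124 and 3468 CPM, and 329 and 108 CPM. Replicate 2 held no embryos without injection. The part of these markers in the result was not tested. The median log2 change was -0.61, and 0.13 over all genes. Scaling by total counts alone gave 26 lower and none higher and moved the median of all genes to -0.29, and the replicate block gave 24 lower and 3 higher (31.9% of all genes called). Without replicate 1 none of the 47 passed, and only 1 of all 10544 genes did. Within replicate 1, 5 fell and 1 rose of 47 (15.6% of all genes called, 4.5% lower). Eif1b was among the 5, and Eif4a2 rose. Within replicate 3, 11 fell and 1 rose of 45 (26.7% called, 11.5% lower), and the gene that rose was Eif4e3. Of the 15 genes that fell, 12 had also fallen after maternal deletion, among 29, and the other 3 were Eif2b5, Eif3i and Eif3k. Here too, 63.0% of the initiation factor genes tested had fallen after deletion, and the overlap over all genes was not counted.

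The 3 largest falls were those of eIF3 genes. Eif3g had 21.2, 72.6 and 194 CPM without injection and 0, 12.6 and 134 CPM with anti-SMARCA5, with 18 of 31 injected embryos below every control. It fell by 1.57 ± 0.47 (adjusted p = 0.0135). Eif3d had 1.26, 23.1 and 73.3 CPM without injection and 0, 8.48 and 37.5 CPM with anti-SMARCA5, and it fell by 1.52 ± 0.46 (adjusted p = 0.0141). Eif3f, a scaffold subunit, had 37.9, 89.5 and 151 CPM and 0, 28.3 and 110 CPM, and fell by 1.43 ± 0.43 (adjusted p = 0.0129). In all 3 the ranges overlapped, with the injected embryos towards the low end. Eif4h went from a median of 54.0 CPM to 18.3 CPM and fell by 1.41 ± 0.40 (adjusted p = 0.00915). Eif6 went from 318 to 94.7 CPM and fell by 1.26 ± 0.46 (adjusted p = 0.0368).

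The 3 genes that rose were Eif4a2, Eif4e3 and Eif4g2. Eif4a2, a helicase close to Eif4a1, had 79.2, 110 and 254 CPM without injection and 104, 217 and 1521 CPM with anti-SMARCA5. Eif4a2 was above the control median in 28 of 31 injected embryos and rose by 1.10 ± 0.27 (adjusted p = 0.00371). Eif4e3 had 50.2, 130 and 167 CPM without injection and 57.5, 147 and 468 CPM with anti-SMARCA5, and rose by 0.72 ± 0.23 (adjusted p = 0.0173). Eif4g2 had 617, 998 and 1830 CPM and 553, 1558 and 2971 CPM, and rose by 0.57 ± 0.18 (adjusted p = 0.0172). All 3 lost the call when libraries were scaled by total counts alone. The same genes had medians of 161, 131 and 1370 CPM with IgG, and against IgG their changes of 0.48, 0.22 and -0.01 did not pass.

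Other members were followed in all 3 injected and control groups. Eif1a had medians of 127, 113 and 126 CPM without injection, with IgG and with anti-SMARCA5, and Eif1ax 60.2, 88.9 and 56.7 CPM. Eif2s3x had 77.4, 76.7 and 54.4 CPM and fell by 0.70 ± 0.25 against no injection (adjusted p = 0.0347). Eif2s3y was at 0 in 6 of 15, 10 of 20 and 16 of 31 embryos. Eif4e had 526, 676 and 416 CPM and a change of -0.63 ± 0.23 against IgG (adjusted p = 0.0867, and 0.0465 under the block). Eif4g1 had 316, 252 and 201 CPM and fell by 0.63 ± 0.20 against no injection (adjusted p = 0.0168). Eif4ebp1 had 55.9, 35.4 and 38.6 CPM and passed in neither comparison.

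The injection control itself gave no call. Between IgG and no injection edgeR and DESeq2 called 0 of 47 genes each, with 9 and 11 at an unadjusted p under 0.05, and the median log2 change was -0.22. Among all genes edgeR called 0.0% of 9915, and DESeq2 called 207.

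In the other lists, 5 of 11 tested elongation and termination factors fell against no injection and none against IgG (5 with the block). Eef2 fell by 1.19 ± 0.30 against no injection (adjusted p = 0.00468). Of 34 regulators 3 rose and 2 fell, each a smaller share than the 17.5% and 10.4% of all genes, the rises being Paip1 (1.47), Eif4e1b (0.90) and Eif2ak2, an eIF2 kinase that senses double-stranded RNA (2.40, not called under the block). Abcf1 fell by 1.89 and Mknk1, a kinase of eIF4E, by 1.25.

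The size of the 2 effects was compared directly, as the change after deletion minus the change of anti-SMARCA5 against IgG. Of 47 genes 14 were lower and 2 higher in this contrast, against 8.73% and 10.5% of 12035 genes. Eif2s3y is one of the 14, but it had too few counts for the deletion comparison and passed the joint filter through the TrimAway libraries, so its call says nothing of the deletion. Of the 46 genes tested in both, 13 were lower and 2 higher. With the replicate block 4 were lower (Eif2b4, Eif3a, Eif3c and Eif4a3) and 2 higher (Eif1 and Eif1b), against 3.68% and 7.99%. In eIF3 the contrast called 5 of 12 genes lower, with a median difference of -1.88.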

How the data were processed

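Polyadenylated RNA of single embryos was counted per gene by the authors, and the deposited values are raw counts. Per the submitters' processing notes the tools were Trim Galore 0.6.5, cutadapt 2.3 and HISAT2 2.1.0 with GRCm38. Strand use, multiple mapping and annotation are not given in the sources used here. Lines that shared a gene ID (57 IDs) were summed.

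Libraries under 100000 counts (19 embryos) and 3 wells without embryo were left out. Each comparison was fitted across all genes with edgeR 4.0.16 (R 4.3.3; quasi-likelihood, robust, TMM, filterByExpr, Benjamini-Hochberg, threshold 0.05), and the scripts were tested on simulated data. Alternatives were DESeq2 1.42.0, total counts only, no filter, a 500000 minimum, the replicate block, left-out replicates or libraries and, added after seeing the data, single pools. Genes described with levels were the 5 largest called changes per direction (average log2 CPM of at least 4 for deletion) and 8 fixed genes; levels of other members were given after their values were seen. Members and lists were chosen with earlier results of these data known. Same-numbered groups deviated together (correlation 0.539 for deletion, 0.591 for IgG, 0.0795 for no injection), and the labels make a number a shared pool or collection. The 2 deletion pools ran on different lanes, so lane and pool cannot be told apart.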

Additional observations from a re-analysis of the deposited data

Results flagged for a closer look

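The edgeR test of the difference between the effect of maternal deletion and that of anti-SMARCA5 against IgG called 16 genes. The log2 effect of deletion minus that of anti-SMARCA5 was below 0 for 14. For eIF3 genes it was -2.98 in Eif3b, -2.42 in Eif3c, -2.09 in Eif3a, -1.97 in Eif3h and -1.83 in Eif3m, and -1.16 in Eif3j. For the eIF2 and eIF2B genes it was -3.53 in Eif2s3y, -2.42 in Eif2b4 and -1.39 in Eif2s3x. Around the cap it was -2.31 in Eif4h, -2.29 in Eif4a3 and -1.95 in Eif4e2. For the late factors it was -2.08 in Eif6 and -0.94 in Eif5. The value of Eif2s3y says nothing of the deletion: the gene had no count in 25 of 28 deletion embryos, was too low to test there, and passed the joint filter through the TrimAway libraries. The difference was above 0 in Eif1 (0.99) and Eif1b (1.64). With the replicate block Eif1, Eif1b, Eif2b4, Eif3a, Eif3c and Eif4a3 kept the call.

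Wells without an embryo held some counts of these genes. Eif5a had 5 counts in well G03, of 823 in all, and Eif5 had 6 counts in well H03, of 1875. The well F05, with 453 counts, had none.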

How the results depend on the processing

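Limits are the few pools, the wild-type libraries of low depth and zeros in low genes. In the deletion comparison, leaving out a replicate gave 12 to 26 lower genes, 2801 to 3879 calls over all genes, and no filter gave 10416. Values near 0 changed sign. Eif1ax was -0.29 with total counts, -0.18 with DESeq2, -0.14 with no filter, -0.15 with the replicate block, -0.064 without the 3 libraries that stand apart and -0.27 to 0.21 without a replicate. Eif4ebp1 was -0.13 with total counts, -0.084 with DESeq2, -0.069 with no filter, -0.00089 with the 500000 minimum and -0.20 without the 3 libraries. Eif4ebp2 was -0.12, -0.074, -0.0025 and -0.094 under the first 4 of these, and -0.17 to 1.01 without a replicate. Eif2b1 was 0.055 with the block, and Eif2d 0.042 with the 500000 minimum. Without a replicate Eif2b1 ran from -0.31 to 0.73, Eif3i from -0.077 to 0.11 and Eif4g2 from -0.33 to 1.15. Against IgG the lower genes numbered 0 with total counts, 4 with DESeq2, 3 with no filter, 19 with the replicate block, 0 with the 500000 minimum, 0 to 4 without a replicate, 2 without the library lacking Trim21, 0 within replicate 1 and 7 within replicate 3 (1 higher). Calls over all genes, in that order, were 64, 1029, 3010, 2691, 150, 0 to 591, 521, 90 and 1576. Eif4g2 was 0.090 with the block, and without a replicate -0.071 to 0.24. Eif1a ran from -0.22 to 0.12, Eif1ax from -0.49 to 0.024 and Eif4ebp1 from -0.50 to 0.74. Against no injection, total counts gave 0 higher and 26 lower, the block 24 lower, leaving out a replicate 0 to 3 higher and 0 to 14 lower, single pools 1 higher each, and replicate 1 alone 5 lower. Over all genes there were 6184 calls with no filter, 1 to 2921 without a replicate and 1656 within replicate 1. Eif2s3y was -0.50 with the block and -0.73 to 0.87 without a replicate. Eif1a then ran from -0.65 to 0.28, Eif4ebp1 from -0.84 to 0.16 and Eif4e from -0.35 to 0.15. For IgG against no injection DESeq2 called 207 genes, no filter 881, and a left-out replicate 0 to 1. The difference between pools gave 1 higher member and 678 genes with no filter, and 1 gene with the 500000 minimum. The contrast of both effects gave 4285 genes with no filter and, with the block, 1404 genes and 4 lower members. Where a smaller sample is no part of the setting, the cause was not tested.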
